A study of Mus musculus with 18 samples.

Results

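The oculomotor nucleus was compared with the spinal cord in 10-week-old mutant mice of a model of amyotrophic lateral sclerosis (ALS). The comparison rests on 6 of the 18 arrays of the series: 3 of the oculomotor nucleus and 3 of the cervical spinal cord, chosen by the region, age and genotype in their titles. The other 12 arrays, 3 in each group, came from the same 2 regions in 10-week controls and 6-week mutants. None of the 18 arrays came from controls of 6 weeks. The labels call every sample part of an ALS model and name no mutation, promoter or strain. They do not say what the controls carry, whether animals were pooled or how the nucleus was dissected. The design text speaks of independent replicates without saying of what. A p-value here therefore speaks only to the spread among these samples, which may be technical. The design text sets every oculomotor sample against every spinal cord sample of its age, and here the regions are compared as groups of 3.

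The oculomotor nucleus lies in the ventral midbrain, next to the aqueduct. Its motor neurons move the eye muscles and are known to survive in ALS, whereas those of the spinal cord are lost. Close to it lie the serotonin neurons of the dorsal raphe, the dopamine neurons of the ventral tegmental area and the peptide-making neurons of the Edinger-Westphal nucleus, so bulk tissue of this place can hold several neuron types. The spinal cord is richer in long myelinated tracts and keeps the Hox code, the set of homeobox genes that marks position along the body axis. Microglia, the resident macrophages of the nervous system, multiply and change state in the affected spinal cord of ALS models. In bulk samples, fewer cells of a type and less RNA per cell cannot be told apart.

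Promoter sequences are shown here because several genes, picked by list and by the direction of their change, hold the same short motif there. The sequences belong to a few of the genes on which the results below turn. They are RefSeq windows of mouse assembly GRCm38.p6, from 250 bases before to 50 bases after the annotated start. Each is written 5′ to 3′ on the strand of the gene. In the first 3, genes higher in the oculomotor nucleus, capitals mark TGACGTCA, the cyclic AMP response element. Cartpt, a neuropeptide precursor, lies at chr13:99900634-99900933 on the minus strand, with the motif starting 112 bases before the start. Th, the first enzyme of dopamine synthesis, lies at chr7:142899946-142900245 on the minus strand, with the motif 45 bases before the start. Scg2, a protein of dense-core vesicles, lies at chr1:79439977-79440276 on the minus strand, with the motif 68 bases before the start. In the last pair, complement genes of microglia that were lower in the oculomotor nucleus, capitals mark ACTTCCT. This is AGGAAGT read on the opposite strand, the core bound by PU.1-type ETS factors. C1qb lies at chr4:136886151-136886450 on the minus strand with the motif 53 bases before the start, and C1qc at chr4:136892865-136893164 on the minus strand with the motif 195 bases before it.
Cartpt: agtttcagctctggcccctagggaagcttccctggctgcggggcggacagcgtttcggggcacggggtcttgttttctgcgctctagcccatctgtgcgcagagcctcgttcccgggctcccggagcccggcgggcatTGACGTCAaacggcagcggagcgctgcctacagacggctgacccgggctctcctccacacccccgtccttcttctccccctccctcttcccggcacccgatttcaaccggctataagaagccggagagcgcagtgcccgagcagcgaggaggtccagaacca
Th: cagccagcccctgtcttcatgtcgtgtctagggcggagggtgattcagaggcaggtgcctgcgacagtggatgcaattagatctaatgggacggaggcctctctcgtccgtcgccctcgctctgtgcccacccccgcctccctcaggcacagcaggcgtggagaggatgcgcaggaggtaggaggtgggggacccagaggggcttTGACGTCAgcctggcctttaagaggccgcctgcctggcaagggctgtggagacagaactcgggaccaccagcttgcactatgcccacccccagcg
Scg2: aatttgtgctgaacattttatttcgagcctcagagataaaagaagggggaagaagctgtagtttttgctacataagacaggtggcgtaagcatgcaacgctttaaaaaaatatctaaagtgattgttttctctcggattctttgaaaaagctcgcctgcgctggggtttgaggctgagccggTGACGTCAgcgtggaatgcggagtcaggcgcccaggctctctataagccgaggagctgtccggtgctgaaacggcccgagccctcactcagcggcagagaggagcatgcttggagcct
C1qb: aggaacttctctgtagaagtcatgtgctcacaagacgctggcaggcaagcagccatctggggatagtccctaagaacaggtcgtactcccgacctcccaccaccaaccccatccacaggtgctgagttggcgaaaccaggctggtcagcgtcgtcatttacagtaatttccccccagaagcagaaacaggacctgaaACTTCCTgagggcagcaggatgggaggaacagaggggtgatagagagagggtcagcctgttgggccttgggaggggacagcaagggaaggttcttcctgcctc
C1qc: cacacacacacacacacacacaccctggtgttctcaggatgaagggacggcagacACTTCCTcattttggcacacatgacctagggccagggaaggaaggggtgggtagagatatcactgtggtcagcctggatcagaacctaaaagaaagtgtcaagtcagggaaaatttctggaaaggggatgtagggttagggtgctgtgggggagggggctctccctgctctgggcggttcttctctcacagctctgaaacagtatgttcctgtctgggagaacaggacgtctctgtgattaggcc

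Both motifs were searched on both strands of 32851 promoter windows. TGACGTCA was found in 1.79% of the windows and in 3.61% of the 6557 tested genes with a window. Among the 19 genes of the dopamine, serotonin and neuropeptide lists that were higher in the oculomotor nucleus, 15 had a window and 5 held it: Cartpt, Chgb, Pcsk1, Scg2 and Th. Neuropeptide genes moved both ways, and the members of these lists that were lower were not counted on their own. AGGAAGT was found in 9.35% of the windows and in 9.73% of the tested genes. Among the 20 microglial genes that were lower, 12 had a window and 7 held it: P2ry12, Ctss, Cd53, C1qb, C1qc, Arhgdib and Pf4. Over all genes called, TGACGTCA stood in 4.71% of those higher and 2.87% of those lower in the oculomotor nucleus, and AGGAAGT in 5.72% and 12.1%. In all 11 motifs were searched, chosen after the expression values were known. The others were the core promoter box TATAAA, found in 13.6% of the windows, the box for Sp1, GGGCGG, in 35.7%, and the shorter cyclic AMP motif TGACG, part of TGACGTCA, in 20.8%. The shorter ETS motif GAGGAA stood in 28.3%, the motif of GATA factors GATAA in 25.4% and its longer form, AGATAA, in 11.2%. A pair of motifs of posterior Hox factors was found as TTTATGG in 2.75% and as TTTATTG in 4.60%, and the box of serum response factor in 0.0639%. Some of these other motifs were frequent in the same lists too. TATAAA stood in 5 of the 15 dopamine, serotonin and neuropeptide windows (33.3%, against 8.95% of tested genes), as many as TGACGTCA. TGACG stood in 10 of the 15 (66.7% against 37.0%), and GAGGAA in 8 of the 12 microglial windows (66.7% against 30.6%). Others were rarer there, such as TTTATTG in 0 of the 15 (0% against 3.19%) and GGGCGG in 5 of the 12 (41.7% against 71.2%). A match describes the letters of the window and shows no bound factor.

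Signals were read on Affymetrix 430A arrays, on which several probe sets can report 1 gene. One array outside this comparison, control spinal cord replicate 1, had correlations of 0.0104 to 0.0143 with the other arrays and was left out of the fit. The 6 arrays compared here had median signals between 212.5 and 226.1. Oculomotor replicate 2 carried pituitary hormone RNA and spinal cord replicate 1 carried high bacterial spike controls, so each main result was also computed without that pair. In a principal component analysis of the 6 arrays the first component, with 58.9% of the variance, separated the regions (oculomotor nucleus -24.4 to -21.3, spinal cord 19.2 to 27.9). The second, with 13.5%, set spinal cord replicate 1 (-20.1) apart from the other spinal cord arrays (11.3 and 12.5). A change is given below as a log2 fold change of the oculomotor nucleus over the spinal cord, with its standard error (SE), on signals to which 25 was added. A probe set is called where limma's adjusted p is under 0.05, and n is 3 arrays per region throughout.

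Of 13575 probe sets tested, 2619 were called (19.3%), with 1263 higher (9.30%) and 1356 lower (9.99%) in the oculomotor nucleus. Most of these differences were small: 1148 of the higher and 1204 of the lower calls were under 2-fold, 102 and 130 lay between 2-fold and 4-fold, and 9 and 10 between 4-fold and 8-fold. At 8-fold and above 4 were higher and 12 lower. In 4884 probe sets (36.0%) the ranges of the arrays of both regions did not overlap. Counted as genes, each by 1 probe set, 753 of 8072 were higher (9.33%) and 907 lower (11.2%), and the median change over all of them was -0.01. These shares are the background against which the lists below stand; without oculomotor replicate 1 alone, 498 genes were higher. Without oculomotor replicate 2 and spinal cord replicate 1, which leaves 2 arrays per region, 1510 probe sets were called; all 2619 kept their direction and 1416 of them were still called.

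**Figure D1:**
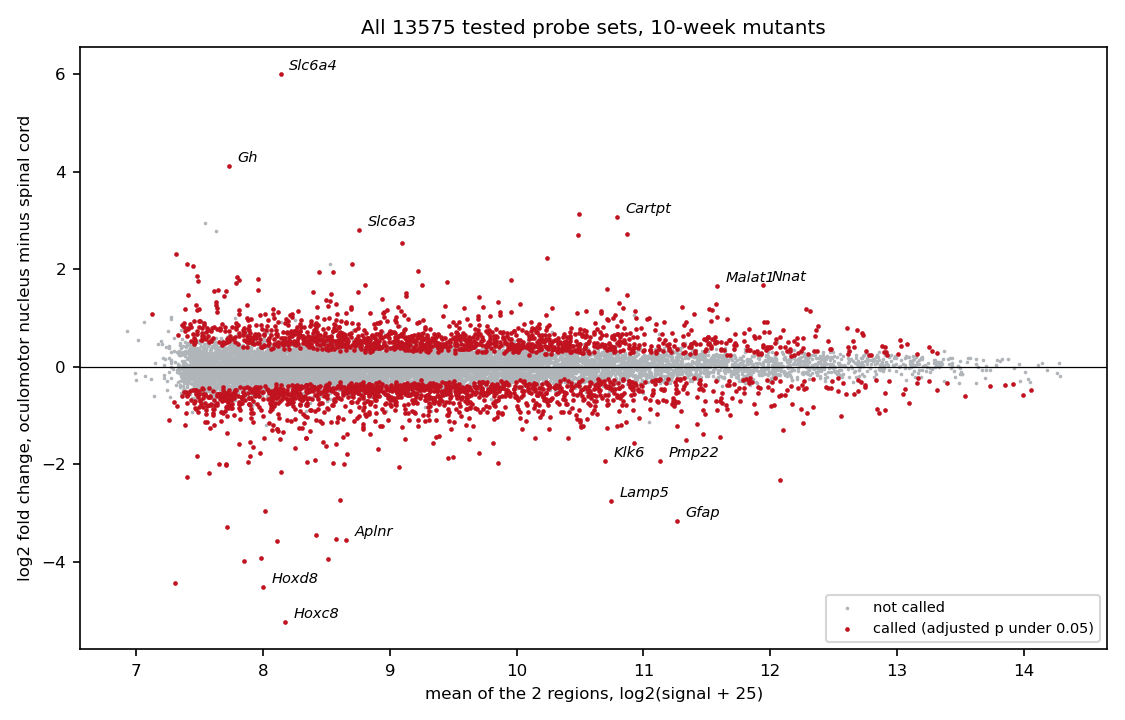
Log2 fold change of the oculomotor nucleus over the spinal cord (y axis) against the mean log2(signal + 25) of both regions (x axis) for the 13575 tested probe sets, red where called. Slc6a4 at 5.99 and Hoxc8 at -5.23 mark the extremes, and most red points lie within 2-fold of no change.

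The widest difference was in the serotonin transporter Slc6a4, which takes serotonin back into the neuron. Its signals were 2098, 2640.1 and 1986 on the oculomotor arrays and 6.7, 18.8 and 6.7 on the spinal cord arrays. All 3 spinal cord values lay below the added 25, so the size of the change, 5.99 ± 0.17, depends on that offset and was 4.39 with an offset of 100 (adjusted p = 4.77e-14). Of the 7 tested genes of the serotonin neuron list, 5 were higher and 1 lower, with a median change of 0.88. Besides Slc6a4 and the decarboxylase Ddc, which serves serotonin and dopamine synthesis, these were Gch1 (1.78 ± 0.16), which makes the cofactor of both pathways, the autoreceptor Htr1a (0.88 ± 0.11; 0.37 on a second probe set, not called) and the transcription factor Gata2 (0.58 ± 0.14). The homeobox gene Nkx2-2, which is also active in cells of the oligodendrocyte lineage, was lower (-0.49 ± 0.11). The receptor gene Htr1b was not called (-0.36 ± 0.17, adjusted p = 0.155). Of 4 further members left out for low mean signal, 2 were higher and 0 lower in a limma fit that kept them. A gene that is low in 1 region, as Slc6a4 is, can be tested only when the other region is high. The share of tested members that were higher is therefore set in part by that filter.

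In the dopamine neuron list 8 of 12 tested genes were higher and none lower, with a median of 1.41; without the pair of doubted arrays 9 were higher. At an unadjusted p under 0.05 limma also gave 9 higher and 0 lower. Th had signals of 1126, 1220.0 and 1555 in the oculomotor nucleus and 222, 193 and 192 in the spinal cord (2.53 ± 0.13). The dopamine transporter Slc6a3 read 969, 898 and 1608 against 128, 133 and 157 (2.80 ± 0.17). Oculomotor replicate 3 was the highest array for both genes, and for neither did the regions overlap. The other called members were the nicotinic receptor subunit Chrna6 (1.86 ± 0.23) and the developmental factors Foxa2 (1.55 ± 0.17), En2 (1.27 ± 0.20) and Nr4a2 (1.00 ± 0.18), besides Ddc and Gch1. The dopamine receptor gene Drd2 (0.42 ± 0.16) and the growth factor receptor gene Ret (-0.19 ± 0.14) were not called. Of 5 further members left out for low mean signal, 2 were higher and 0 lower in the limma fit that kept them. Of the noradrenaline list only the enzyme Dbh could be tested and it was not called (0.29 ± 0.27, adjusted p = 0.491).

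Neuropeptide genes moved both ways: 8 of 27 tested were higher and 6 lower, with a median of 0.13. Cartpt read 4526, 5668 and 5148 in the oculomotor nucleus and 621, 545 and 595 in the spinal cord, a change of 3.07 ± 0.15 (adjusted p = 1.16e-10). The lowest oculomotor array was more than 7 times the highest spinal cord array. Scg2 was higher with little spread within a region (7518, 7489 and 7412 against 2934, 3576 and 3374, 1.18 ± 0.08), as were the granin Chgb (0.59 ± 0.09) and the peptide Vip (1.37 ± 0.25). Lower in the oculomotor nucleus were the neurokinin B gene Tac2 (-3.54 ± 0.33), the calcitonin gene-related peptide gene Calcb (-1.49 ± 0.17), neuropeptide Y (-1.38 ± 0.17) and neurotensin (-0.77 ± 0.13). Npy read 269.5, 305 and 214 against 697, 735 and 718, with no overlap. Among peptide receptors 3 of 17 were higher and 3 lower (median -0.12; 1 higher without oculomotor replicate 3 or without spinal cord replicate 3), with the apelin receptor Aplnr at -3.56 ± 0.19 and the neurokinin receptor Tacr3 at 1.05 ± 0.14.

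Several low-signal genes were left out by the filter, which drops probe sets ranked in the bottom 40% by mean signal. They are named here after their values were seen, with changes from a fit without the filter. Ucn, the urocortin made by neurons of the Edinger-Westphal nucleus, read 354, 483 and 439 in the oculomotor nucleus and 5.7, 13.4 and 7.4 in the spinal cord (3.73 ± 0.19, adjusted p = 2.65e-09). All 3 spinal cord values lay below the offset. Nmu, which encodes neuromedin U, went the other way, with 17.6, 17.3 and 28.8 against 276, 238 and 285 (-2.66 ± 0.16). The calcitonin receptor gene Calcr was higher (1.92 ± 0.28) and Vipr2, a receptor for Vip, was lower (-0.66 ± 0.16).

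Transcription factors of the midbrain and rostral brain were mostly higher: 14 of 24 tested were higher and 3 lower, with a median of 0.54. The homeobox factor Irx2 had signals of 614, 699 and 658 against 152, 129 and 177 (1.95 ± 0.15), and Tcf7l2 of 394, 327 and 269.5 against 45.2, 49.0 and 77.9 (2.12 ± 0.18). The regions did not overlap for either, and the highest spinal cord value of Tcf7l2 was 77.9. Tal1 (1.12 ± 0.14), Zfhx3 (1.23 ± 0.17) and Irx5 (0.83 ± 0.13) were higher too, while Ebf1, a factor of several spinal and mesenchymal cell types, was lower (-1.07 ± 0.14). Other probe sets of Zfhx3 gave 0.79 and 0.48, the latter not called. Of 20 further members left out by the filter, 6 were higher and 1 lower in the unfiltered fit. They include En1 (237, 332 and 365 against 43.2, 51.5 and 78.5, 2.03 ± 0.22), Foxa1 (2.21 ± 0.19), Gata3 and Otx2, which sets the midbrain apart from the hindbrain during development. Gata3 read 303, 251 and 140.1 against 7.9, 8.3 and 8.4 and Otx2 read 137, 147 and 103 in the oculomotor nucleus. All spinal cord values of both lay below the added 25, so the fitted sizes (2.89 ± 0.29 and 2.27 ± 0.31) depend on that offset.

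Hox genes were lower in the oculomotor nucleus in all 8 of the genes that could be tested, with a median of -3.74. Hoxd8 read 41.7, 15.2 and 31.5 in the oculomotor nucleus and 1288, 1192 and 1127 in the spinal cord, a change of -4.52 ± 0.16 that was -3.33 with an offset of 100. Hoxc8 gave -5.23 ± 0.26 and Hoxb5 -3.97 ± 0.25. The smallest of the 8 changes was that of Hoxa9 (334, 192 and 266 against 672, 674 and 639, -1.28 ± 0.30), which was not called without the pair of doubted arrays (-1.08, adjusted p = 0.0748). The array measured 23 further Hox genes at signals under the filter, of which 15 were lower and 0 higher in the unfiltered limma fit. Of these Hoxa7 (10.0, 10.7 and 11.2 against 389, 402 and 243), Hoxb9 (7.9, 15.6 and 14.8 against 323, 407 and 445) and Hoxd9 (19.7, 13.9 and 7.8 against 322, 388 and 465) were near background in the oculomotor nucleus. Hoxd13, of the most caudal group, read 7.7, 7.7 and 8.6 against 5.5, 9.3 and 10.3, whereas Hoxa13 of the same group read 37.1 to 84.0 against 84.1 to 114 and was lower (-0.66 ± 0.21, adjusted p = 0.0479). Because the filter keeps a low gene only when 1 region is high, the share of tested Hox genes that differed is set in part by the filter. The same holds for the midbrain and rostral brain factors and for the serotonin and dopamine lists above.

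Among transcription factors of spinal interneurons 2 of 7 tested were lower and 0 higher, with 3 lower and 1 higher at an unadjusted p under 0.05 in limma. Lbx1, which specifies dorsal interneurons, read 95.2, 123 and 128 against 423, 378 and 346 (-1.54 ± 0.16), and Pax8 gave -0.77 ± 0.12. The median of this list was -0.30 and became 0.05 when the filter was raised to 60%. Of its 10 members under the filter 4 were higher and 3 lower in the unfiltered fit, the higher ones being Gata3, En1, Lhx1 (1.17 ± 0.25) and Tfap2b (0.91 ± 0.27), so the list as a whole moved both ways.

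Genes of motor neurons were not higher in the nucleus that is named for its motor neurons: 8 of 14 tested were lower and 0 higher in limma (9 lower and 1 higher at an unadjusted p under 0.05), with a median of -0.72. Slc18a3, which loads acetylcholine into vesicles, read 318, 389 and 354 in the oculomotor nucleus and 1252, 1051 and 977 in the spinal cord (-1.56 ± 0.13). Slc5a7, the choline transporter, gave -0.68 ± 0.18, and Chodl, a marker of fast motor units, -2.17 ± 0.20. Every oculomotor array lay below every spinal cord array for these 3 genes. Mmp9, a protease of fast-fatigable motor neurons, was lower too (103, 95.9 and 151 against 267, 242 and 232, -0.96 ± 0.15), as was the homeobox gene Isl2 (-0.75 ± 0.15). The summed signal of the list was 7432 to 7601 in the oculomotor nucleus and 13370.4 to 14987 in the spinal cord. The defining factors Isl1 (21.0, 48.2 and 69.0 against 91.0, 31.8 and 101) and Phox2a (37.9, 33.4 and 61.3 against 84.6, 57.7 and 61.8), the latter needed for oculomotor neurons to form, were below the filter in both regions and not called without it (adjusted p = 0.585 and 0.124). The signal of these markers was thus lower on the arrays labelled oculomotor nucleus than on the spinal cord arrays. Some of them, such as Chodl and Mmp9, mark fast motor neurons, so less motor neuron RNA and another motor neuron subtype cannot be told apart here. Isl1 and Phox2a were low in both regions. Uts2, a peptide of motor neurons, read 42.8, 47.9 and 29.3 against 264, 244 and 219.6 and was lower in the unfiltered fit (-2.05 ± 0.24).

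Neuronal intermediate filaments, the scaffold of large axons, were lower in 4 of 5 tested genes and higher in 0, in limma at both thresholds. Prph, found in neurons with peripheral axons, read 87.6, 94.9 and 34.2 against 763, 678 and 661 (-2.96 ± 0.20), although its other tested probe set, which is dimmer, gave -0.10 (adjusted p = 0.677). Nefh read 3076, 2768 and 2510.4 against 6742, 6619 and 7215 (-1.30 ± 0.10). Nefm (-0.86 ± 0.13) and Nefl (-0.59 ± 0.09) changed less, and Ina, a filament of small neurons, was not called (0.05 ± 0.09, adjusted p = 0.746). Prph and Nefh also mark sensory ganglion neurons, and the third tested gene of that list, Gal, was not called (-0.43 ± 0.20).

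**Figure D2:**
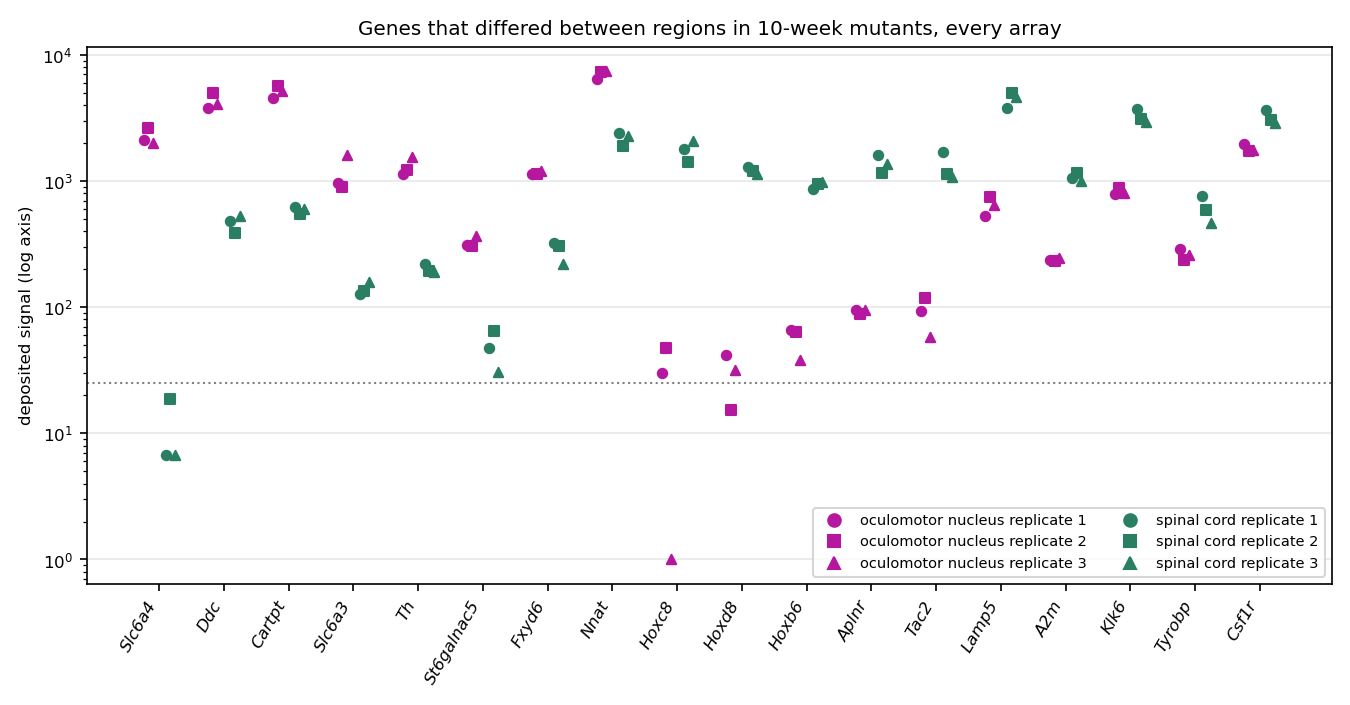
Deposited signal (log axis; values under 1 drawn at 1) of 18 genes on the 3 oculomotor nucleus arrays (magenta) and the 3 spinal cord arrays (green) of 10-week mutants, with the added offset as a dotted line. The regions do not overlap for any gene shown, from Slc6a4 (2098, 2640.1 and 1986 against 6.7, 18.8 and 6.7) to Csf1r (1948, 1712 and 1749 against 3668, 3034 and 2872).

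Inhibitory transmission by GABA was represented more strongly in the oculomotor nucleus. Of 10 tested genes 5 were higher and 0 lower (6 and 0 at an unadjusted p under 0.05 in limma), with a median of 0.39. The GABA-making enzymes Gad2 (1226, 875 and 1126 against 285, 339.7 and 332, 1.67 ± 0.15) and Gad1 (0.98 ± 0.12) led, followed by the receptor subunits Gabrb2 (0.90 ± 0.19) and Gabrb1 (0.69 ± 0.13). The vesicular transporter Slc32a1, which carries both GABA and glycine, was not called (0.12 ± 0.09). Of 4 glycine genes 2 were lower (1 without oculomotor replicate 2 or 3 or without spinal cord replicate 2 or 3), the transporter Slc6a9 (-0.69 ± 0.11) and the receptor subunit Glra1 (-0.78 ± 0.24). On Glra1 the regions overlapped, since spinal cord replicate 1 read 283 and replicates 2 and 3 read 638 and 557. The neuronal glycine transporter Slc6a5, under the filter, read 79.9, 106 and 103 against 206, 217 and 186.

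For glutamate 4 of 9 tested receptor and transporter genes were higher and 0 lower, with 5 and 0 at an unadjusted p under 0.05 in limma (median 0.28). Without oculomotor replicate 1 or without spinal cord replicate 2 the count was 2 higher. The AMPA receptor subunits Gria1 (1379.9, 1316 and 1288 against 612, 692 and 567, 1.06 ± 0.11) and Gria2 (0.66 ± 0.12; 0.36 on a second probe set, not called) stood first, and the vesicular transporter Slc17a6 changed by 0.28 ± 0.09. Sodium channel genes with a change were Scn3b (1.74 ± 0.11) and Scn2a (1.29 ± 0.13; a second probe set gave 1.93), whereas Scn1a (0.09 ± 0.11) and Scn8a (-0.17 ± 0.11), the channels of large fast-firing axons among others, were not called. Calcium channel genes were higher in 6 of 15 and lower in 1, led by Cacna2d2 (0.93 ± 0.13); 3 were higher without spinal cord replicate 1, and without the pair of doubted arrays 1 was higher and 1 lower. Potassium and cyclic nucleotide gated channels split evenly, with 8 of 27 higher and 8 lower. Hcn3, a pacemaker channel gene, read 423, 473 and 419 against 121, 109 and 97.0 (1.79 ± 0.20), while the axonal subunit genes Kcnab1 (-1.08 ± 0.10) and Kcna1 (-0.75 ± 0.13) and the glial channel Kcnj10 (-0.74 ± 0.10) were lower.

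Genes of synaptic vesicle release were higher in 12 of 35 and lower in 2, with a median of 0.23. Syt1, the calcium sensor of fast release, read 2932, 2893 and 2858 against 1035, 978 and 811 (1.60 ± 0.11). Vamp2 (1.15 ± 0.11), Syt13 (1.23 ± 0.14), Doc2b (1.18 ± 0.16) and Rab3c (1.04 ± 0.14; 0.02 on 1 of its 3 tested probe sets) followed, while Vamp1, the vesicle protein of fast synapses in the caudal nervous system, was lower (-0.54 ± 0.08). In the list of synaptic and homophilic adhesion 11 of 34 were higher and 1 lower (median 0.21), among them Ncam1 (1.10 ± 0.10; 0.11 on 1 of its 3 tested probe sets), L1cam (0.92 ± 0.11) and Pcdh8 (0.96 ± 0.13). With each array centred on its median that count was 15 higher and 0 lower. Axon guidance genes were higher in 8 of 35 (5 without spinal cord replicate 2) and lower in 4. Sema3e, a guidance ligand, read 272, 286 and 366 against 64.8, 75.1 and 77.3 (1.76 ± 0.20) and the ephrin receptor Epha5 gave 1.58 ± 0.16, while Sema3a, a repellent, was lower (-1.05 ± 0.16). Calcium-binding proteins were higher in 3 of 15 and lower in 0 (6 and 3 at an unadjusted p under 0.05 in limma; 1 higher without oculomotor replicate 2, and 1 lower without spinal cord replicate 2), with Ncald at 0.91 ± 0.10 and Pvalb, a buffer often named in ALS-resistant neurons, not called (-0.30 ± 0.12, adjusted p = 0.0866).

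Microglial genes were lower in the oculomotor nucleus of these mutants in 20 of 28 tested cases and higher in 0 (22 and 0 at an unadjusted p under 0.05 in limma), with a median of -0.65. Of 12 further members under the filter 0 were called in the unfiltered limma fit (smallest adjusted p 0.0592, for Cyba). The arrays of the regions did not overlap in 4 of the 12, all lower, a share near the 36.0% of all tested probe sets without overlap. Trem2 read 76.8, 54.8 and 92.8 against 60.3, 35.7 and 133. Tyrobp, the adaptor that carries signals of TREM2, read 289, 238 and 258 in the oculomotor nucleus and 756, 587 and 467 in the spinal cord (-1.11 ± 0.14, adjusted p = 1.1e-05). Csf1r, the receptor on which microglia depend for survival, read 1948, 1712 and 1749 against 3668, 3034 and 2872 (-0.81 ± 0.10, adjusted p = 1.44e-05). For both, every oculomotor array lay below every spinal cord array, and spinal cord replicate 1 was the highest. The actin-bundling protein gene Lcp1 (-1.10 ± 0.16) and the complement genes C1qa (543, 677 and 719 against 1371, 1364 and 1079, -0.95 ± 0.15), C1qb (-0.90 ± 0.14) and C1qc (-0.73 ± 0.13) were lower as well. For C1qb this holds on 1 of 3 tested probe sets, the brightest; the others gave -0.45 (adjusted p = 0.0958) and -0.14 (adjusted p = 0.644). The summed signal of the whole list, tested or not, was 12108, 12004 and 12277 on the oculomotor arrays and 21460.1, 18709.9 and 17612 on the spinal cord arrays. Without oculomotor replicate 2 and spinal cord replicate 1 there were 14 calls lower and 0 higher and the median was -0.60. Mpeg1, a pore-forming protein of macrophages, was not called then (-0.84, adjusted p = 0.178).

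Genes of the disease-associated microglial state were lower in 14 of 24 tested cases and higher in 1, with a median of -0.41; 8 were lower without the pair of doubted arrays. The list shares Tyrobp, Trem2 and Cd68 with the one before. Npc2, a lysosomal cholesterol carrier, read 3787, 3783 and 3239 against 7456, 7255 and 6117 (-0.94 ± 0.10), and Igf1, a growth factor of activated microglia and neurons, 206, 288 and 305 against 649.5, 725 and 583 (-1.23 ± 0.18). Lyz2 (-1.02 ± 0.17), Cd9 (-0.67 ± 0.11) and Csf1 (-0.67 ± 0.13; -0.13 on 1 of its 3 tested probe sets) were lower, and Cadm1, an adhesion gene that neurons also express, was the higher one (0.67 ± 0.10). Of 8 members under the filter 5 were lower and 0 higher without it in limma. Those 5 defining markers were weak in both regions: Lgals3 read 37.9, 45.1 and 51.9 against 199, 194 and 127, Itgax 55.8, 77.4 and 52.5 against 188, 126 and 102 and Clec7a 64.4, 82.9 and 127 against 258, 158 and 142, with Cst7 and Cd52 the others. Antigen presentation genes were lower in 3 of 13 and higher in 2, interferon response genes lower in 2 of 17 and higher in 0 (3 and 0 at an unadjusted p under 0.05 in limma), and cytokine genes lower in 3 of 16 and higher in 1. Without spinal cord replicate 1 there was 1 lower gene each in antigen presentation and cytokines, and without oculomotor replicate 1 also 1 in antigen presentation. Complement genes were lower in 6 of 14 and higher in 0 (7 and 0 unadjusted in limma), led by the inhibitor Serping1 (-1.16 ± 0.12); C1qa, C1qb, C1qc, Itgb2 and Itgam of this list also stand in the microglial one.

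**Figure D3:**
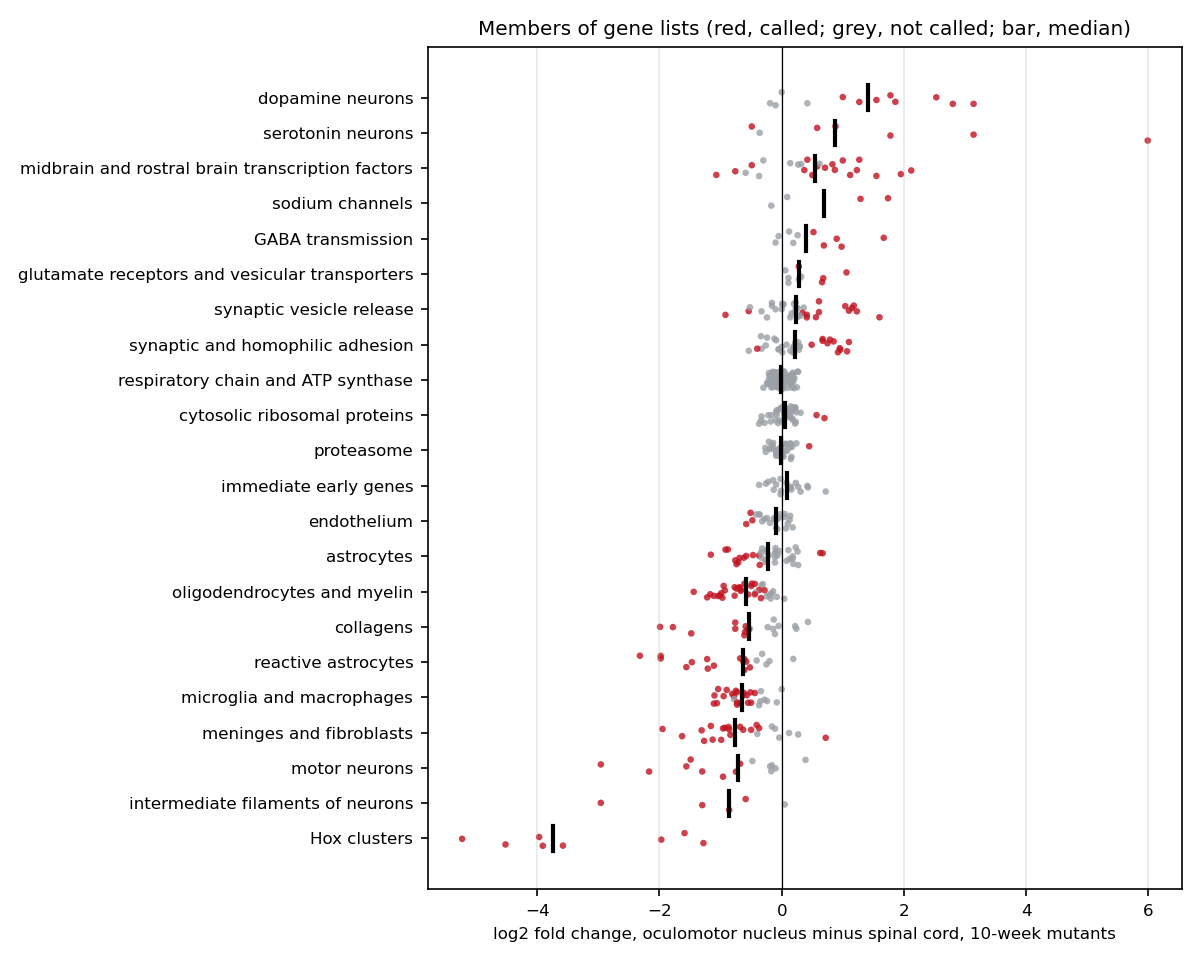
Log2 fold change of the oculomotor nucleus over the spinal cord in 10-week mutants (x axis) for the tested members of 22 gene lists (rows); red points are called and the black bar is the median. Dopamine genes (median 1.41) and Hox genes (-3.74) mark the ends, and the respiratory chain (-0.01) and the proteasome (-0.01) sit at the middle. Only members that passed the signal filter are drawn, which in part sets the medians of lists with many dim genes.

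Myelin genes were lower in the oculomotor nucleus in 26 of 36 tested cases and higher in 0 (28 and 0 unadjusted in limma), with a median of -0.58. Gsn, an actin-severing protein of oligodendrocytes, read 1729, 1796 and 2092 against 4478, 5145 and 5766 (-1.44 ± 0.10). Ugt8a, which makes the myelin lipid galactosylceramide, read 2756, 2585 and 2779.5 against 5265, 5328 and 5186 (-0.95 ± 0.08), and Fa2h, which hydroxylates its fatty acid, gave -1.17 ± 0.12. The gap junction gene Gjb1 (-1.11 ± 0.10), Apod (-1.01 ± 0.09) and Hapln2, a protein of the node of Ranvier (-1.04 ± 0.10), changed by similar amounts. Genes of precursors did not follow, with 2 of 10 lower (1 without any one array other than oculomotor replicate 2) and 1 higher, Cspg5 (0.49 ± 0.11). Among genes of Schwann cells and peripheral myelin 4 of 5 were lower and 0 higher in limma, at the called and the unadjusted threshold alike, with Pmp22 the most (1037, 1260.3 and 1079 against 3540.3, 5006 and 4732, -1.94 ± 0.16). Of the same lipid pathways 11 of 21 genes of fatty acid and glycolipid synthesis were lower and 1 higher. For cholesterol synthesis 8 of 20 were lower and 0 higher (10 and 0 unadjusted in limma), among them Hmgcs1, an early enzyme (-0.55 ± 0.08), and Sqle (-0.57 ± 0.11).

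Genes of the meninges and fibroblasts were lower in 17 of 24 tested cases and higher in 1, with a median of -0.76. The small proteoglycan Ogn read 131, 140.3 and 152 against 603, 747 and 517 (-1.95 ± 0.17), and Islr gave -1.63 ± 0.16. Collagens were lower in 10 of 19 and higher in 0 (11 and 1 unadjusted in limma), and in 6 of 19 without the pair of doubted arrays, without oculomotor replicate 1 or 2 alone or without spinal cord replicate 2 alone; Col3a1 read 158, 218 and 207 against 632, 991 and 605 (-1.78 ± 0.17). Col1a1 reached 589 on spinal cord replicate 2 and 285 and 311 on the other spinal cord arrays (-1.99 ± 0.28). The summed signal of the meningeal list was 22012 to 22261 in the oculomotor nucleus and 25944 to 32918 in the spinal cord, highest on spinal cord replicate 2. Matrix genes outside the collagens were lower in 12 of 35 and higher in 3 (0 higher without oculomotor replicate 1 or spinal cord replicate 2, 1 without oculomotor replicate 2 or spinal cord replicate 3), with Reln, an extracellular guidance protein (-1.06 ± 0.10), and Nid1, a basement membrane protein (-1.47 ± 0.15), lower. Endothelial genes were lower in 3 of 26 and higher in 0 (5 and 0 unadjusted in limma; 1 lower without oculomotor replicate 1), with Itm2a at -0.58 ± 0.11. Mural cell genes were lower in 2 of 13 and higher in 0, in limma at both thresholds, and 1 was lower without any one of oculomotor replicates 1 and 2 and spinal cord replicates 1 and 3. How much meningeal tissue each sample held was not tested.

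Reactive astrocyte genes were lower in 14 of 19 tested cases and higher in 0 (16 and 0 unadjusted in limma), with a median of -0.63. Gfap, the filament of astrocytes, read 1918, 1963 and 1833 in the oculomotor nucleus and 10697, 11156 and 7481 in the spinal cord (-2.32 ± 0.21). The spread within the oculomotor nucleus was small, and spinal cord replicate 3 was the lowest of its group. Lgals1 (-1.98 ± 0.12), S100a6 (-1.98 ± 0.15) and the hyaluronan receptor Cd44 (-1.47 ± 0.17) were lower, as were the filament Vim (-1.21 ± 0.14) and the small heat shock protein Hspb1 (-1.56 ± 0.17). Of 38 general astrocyte genes 12 were lower and 2 higher (median -0.23; 1 higher without oculomotor replicate 3 and 4 without spinal cord replicate 3). The water channel Aqp4 (-0.88 ± 0.11) and S100b (-1.16 ± 0.10), which oligodendrocytes also express, were lower, while Plpp3 was higher (0.63 ± 0.08). Slc1a3, a glutamate transporter of astrocytes, was higher on its 3 probe sets, by 0.67 to 1.52.

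Among trophic factors and their receptors 16 of 41 were lower and 4 higher, with a median of -0.19. Besides Igf1 the lower genes included the binding proteins Igfbp6 (-1.31 ± 0.18) and Igfbp4 (-0.98 ± 0.17), Fgf1 (1630.1, 1692 and 1569 against 2576, 2708 and 2374, -0.64 ± 0.08) and Bmp6 (-0.87 ± 0.16). The binding protein gene Igfbp5 went the other way (1223, 1206 and 1098 against 857, 709 and 572, 0.72 ± 0.14; 0.25 on a second probe set, not called), and the intracellular Fgf13 was higher (0.46 ± 0.09). Metal handling genes were lower in 4 of 22 and higher in 1, with the metallothioneins Mt1 (-0.56 ± 0.15) and Mt2 (-0.53 ± 0.17) and the transferrin receptor Tfrc (-0.50 ± 0.12) among the lower. Antioxidant genes were lower in 4 of 31 (2 without oculomotor replicate 1) and higher in 2; Gpx3, an extracellular peroxidase, read 846, 1178 and 1216 against 678, 425 and 523 (0.97 ± 0.17) and Nfe2l2, which drives the antioxidant response, gave -0.58 ± 0.10. Of 34 chaperone genes 3 were higher (1 without oculomotor replicate 1 or spinal cord replicate 1) and 3 lower, the lower ones being the small heat shock proteins Hspb1, Hspb8 (-1.24 ± 0.15) and Cryab (-0.69 ± 0.17). Of 20 familial ALS genes 3 were higher and 0 lower (5 and 3 unadjusted in limma): Ubqln2 (0.48 ± 0.10), Matr3 (0.40 ± 0.10) and Vapb (0.28 ± 0.09). Without the pair of doubted arrays 1 gene of the list was called, and a second probe set gave -0.10 for Ubqln2 and 0.03 for Vapb, neither called.

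Basic cell functions stayed near the background median of -0.01. Of 82 tested genes of the respiratory chain and ATP synthase 0 were called in limma (2 higher and 1 lower at an unadjusted p under 0.05; 1 higher with median centring and 1 lower with quantile normalization), with a median of -0.01. Of 44 cytosolic ribosomal protein genes 2 were higher, the variant genes Rpl22l1 (0.57 ± 0.15) and Rps4l (0.70 ± 0.19), and 0 lower (5 and 2 unadjusted in limma; 1 higher without any one of oculomotor replicates 1 and 2 and spinal cord replicates 2 and 3). Of 35 proteasome genes 1 was higher, Psmb10, an immunoproteasome subunit (0.45 ± 0.12), and 0 lower (1 and 3 unadjusted in limma). Immediate early genes, which respond to neuronal activity and handling, gave 0 of 19 calls in limma, with 0 higher and 1 lower at an unadjusted p under 0.05. Fos read 1702, 902 and 902 against 894, 728 and 859. The unfolded protein and integrated stress response list had 1 gene higher and 3 lower of 26. The higher one was the amino acid transporter Slc7a3 (886, 827 and 800.4 against 164, 152 and 215, 2.11 ± 0.16), and the serine synthesis genes Psat1 (-0.48 ± 0.10) and Phgdh (-0.38 ± 0.10) were among the lower. Genes of axonal transport and microtubules were higher in 7 of 43 and lower in 5. The count of higher genes was 4 without oculomotor replicate 1 or 3, and 3 without spinal cord replicate 1 or without the pair. Clock genes were higher in 3 of 16 and in 1 without oculomotor replicate 1 or 2. Wnt genes were higher in 3 of 16 and lower in 2.

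Outside the lists, a few of the widest differences were in genes of known function. Fxyd6, a regulator of the sodium pump, read 1139.7, 1127 and 1191 in the oculomotor nucleus and 319, 303 and 218 in the spinal cord (1.96 ± 0.13). The imprinted gene Nnat read 6484, 7309.8 and 7383 against 2387, 1894 and 2289.6 (1.68 ± 0.10). The sialyltransferase gene St6galnac5 (2.31 ± 0.19), the actin-binding Klhl1 (2.06 ± 0.35), the G-protein regulator Rgs8 (1.69 ± 0.14) and the synaptotagmin gene Syt17 (1.72 ± 0.19) were higher too. In the other direction Lamp5, a neuronal member of the lysosomal membrane protein family, read 531, 746 and 645 against 3784, 4949.7 and 4638 (-2.76 ± 0.20). The protease Klk6 of oligodendrocytes read 787, 877 and 806 against 3708, 3076 and 2949 (-1.94 ± 0.11), and the protease inhibitor A2m 236, 234 and 243 against 1057, 1166 and 1002 (-2.06 ± 0.12). No array of one region reached the values of the other in these genes. The homeodomain protein gene Hopx (-1.87 ± 0.21), the cell cycle inhibitor Cdkn1c (-1.83 ± 0.25) and the sterol hydroxylase Cyp27a1 (-1.68 ± 0.15) were lower.

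Noncoding RNAs of the nucleus were higher in 4 of 7 tested genes and lower in 1 (median 0.63). Malat1 read 8433, 4132 and 4561 in the oculomotor nucleus and 719.7, 2115 and 3171 in the spinal cord (1.66 ± 0.47, adjusted p = 0.0172). Its 5 probe sets ran from -0.04 to 1.66, and without oculomotor replicate 2 and spinal cord replicate 1 it was not called (1.25, adjusted p = 0.102). Rian likewise had its lowest value on spinal cord replicate 1, at 598.5 against 1282.6 and 1220.0, and was not called without that pair (0.86, adjusted p = 0.219). Without the pair 0 of the 7 were higher in limma and 1 was lower; 1 was higher without oculomotor replicate 1 or spinal cord replicate 1, and 2 without oculomotor replicate 2 or 3.

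Of 250 probe sets with a difference of at least 2-fold, 1 symbol and arrays that did not overlap (91 genes higher and 115 lower), 236 were still called without oculomotor replicate 2 and spinal cord replicate 1, and 216 stayed at 2-fold or more. The pituitary hormone genes show what sets oculomotor replicate 2 apart. Gh read 120.5, 13207 and 332 in the oculomotor nucleus and 23.9, 50.5 and 10.6 in the spinal cord, and Pomc 183, 6756 and 294 against 106, 175 and 188. Prl (102, 2209 and 17.9) and Cga, at 1134, were under the filter and highest on the same array. Gh was called (4.12 ± 1.18, adjusted p = 0.0197) but not without the pair (2.14, adjusted p = 0.189), and Pomc was not called (adjusted p = 0.0607). Summed over the pituitary list the oculomotor arrays read 785, 23915 and 1128, and the spinal cord arrays 741 to 770.2. On spinal cord replicate 1 the spike control for Dap read 3083.9 against 1.5 to 6.3 on the other 5 arrays, and the ratio of the Gapdh 3′ to 5′ probe sets was 0.677 against 0.772 to 0.832. The muscle gene Acta1 read 106, 80.6 and 63.7 in the oculomotor nucleus and 337, 11.7 and 250.5 in the spinal cord, low on replicate 2 alone. What part carried-over tissue had in other genes was not tested, beyond the values without the pair.

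**Figure D4:**
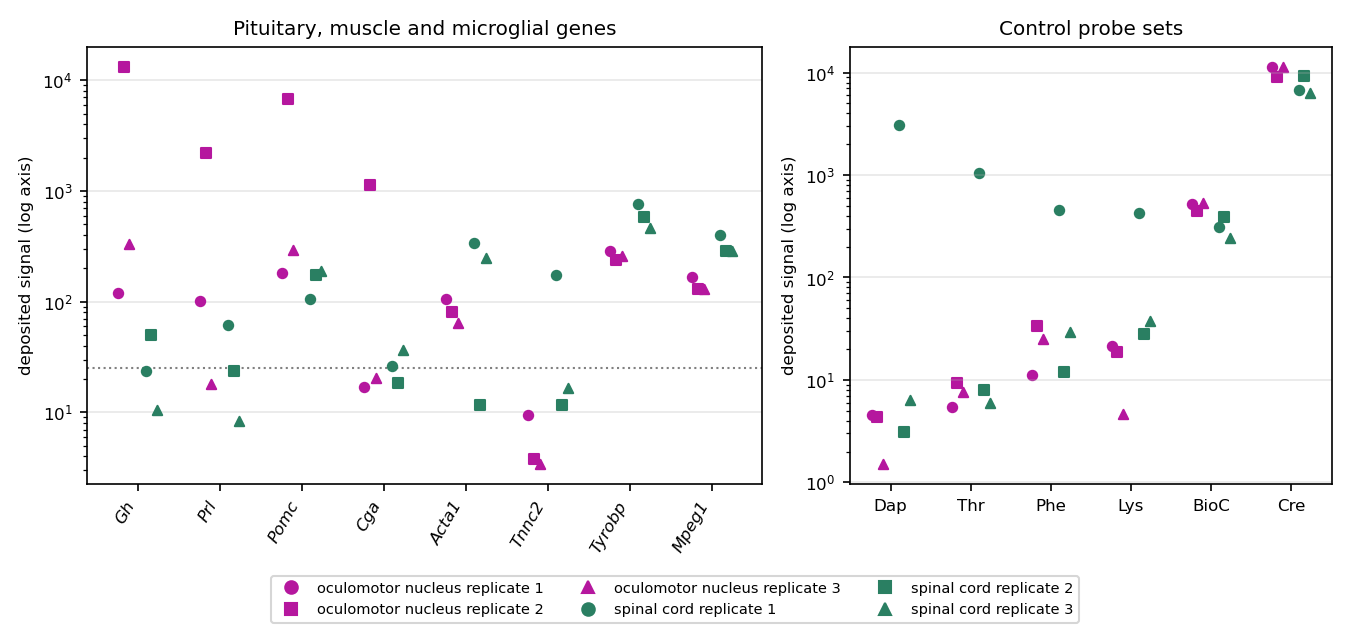
Deposited signal (log axis; values under 1 drawn at 1) on each of the 6 arrays for pituitary, muscle and microglial genes (left, with the offset dotted) and for the 3′ probe sets of control RNAs (right). Oculomotor replicate 2 alone exceeds 1000 for Gh, Prl, Pomc and Cga, and spinal cord replicate 1 alone exceeds 400 for Dap, Thr, Phe and Lys.

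The next question is whether the regional difference of 10-week mutants departs from that of controls of the same age. In limma 0 of 13575 probe sets were called for that difference (0%), with 835 at an unadjusted p under 0.05 and a smallest adjusted p of 0.391. The count was 0 under every other setting tried too. The control spinal cord group held 2 arrays. The smallest p-values belonged to Atox1, a copper chaperone, whose regional difference was -0.04 in mutants and -0.75 in controls on 1 of its probe sets (difference 0.71 ± 0.13), and to Spata5, at -0.69 and 0.62 (-1.31 ± 0.25), both with an adjusted p of 0.391. The microglial list had 20 of 28 genes lower in the mutants (median -0.65) and 10 of 28 in the controls (-0.42). Fewer probe sets were called in the controls as a whole, 1841 against 2619, so these counts are not on the same footing. The median difference of the microglial list between the conditions was -0.20, with 24 of 28 genes below 0. Over all tested genes the median was -0.01, with 4188 of 8072 below 0. In limma 0 genes of the list were called for the difference. These genes were read on the same few arrays and are not separate observations. The median difference was not recomputed without the pair of doubted arrays. Of that pair, spinal cord replicate 1 had the highest summed signal of the list (21460.1 against 18709.9 and 17612). Tyrobp stood at -1.11 in the mutants and -0.60 in the controls, Csf1r at -0.81 and -0.65 and Hoxd8 at -4.52 and -4.09. Myelin genes were lower in 26 of 36 in the mutants (median -0.58) and in 29 of 36 in the controls (-0.72). Slc6a4 was higher by 5.99 and 5.31 and Cartpt by 3.07 and 2.75. Set against the mean of the controls and the 6-week mutants, 0 probe sets were called as well (0%; 1423 at an unadjusted p under 0.05, smallest adjusted p 0.194, 1 called in limma without 6-week spinal cord replicate 1).

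Against 6-week mutants 50 of 13575 probe sets were called (0.368%), 19 with a more positive and 31 with a more negative regional difference at 10 weeks. With median centring 20 were called, 18 more positive and 2 more negative, so the split by direction depends on the scaling. With no filter on low signals 0 were called, and 0 without any one of 4 arrays: 6-week oculomotor replicate 2, 10-week oculomotor replicates 1 and 3 and 10-week spinal cord replicate 2. Without the pair of doubted arrays 4 were called. All 50 kept their sign when each of the 12 arrays was left out, and each was still called in 0 to 6 of those 12 fits. Several of them rest on 1 of the probe sets of a gene, as given below. Of the 50, 28 differed between the regions at 10 weeks and 43 at 6 weeks. In 37 the regional difference had opposite signs at the 2 ages, counted by sign alone. That count includes genes with no called difference at 1 of the ages. Examples are Jak1 at 10 weeks (0.03, limma adjusted p = 0.837) and Mobp at 6 weeks (0.02, limma adjusted p = 0.939).

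The forkhead factor Foxo3, a regulator of stress resistance and survival, read 214, 352 and 352 at 6 weeks and 454, 398 and 538 at 10 weeks in the oculomotor nucleus of mutants. In the spinal cord it read 689, 659 and 505 at 6 weeks and 307, 246 and 352 at 10 weeks. On this probe set the regions changed places, from -0.98 to 0.58, a difference of 1.56 ± 0.26 (adjusted p = 0.0358). The other tested probe set of Foxo3, with the higher mean signal, gave a difference of 0.05 (adjusted p = 0.901), so the change rests on 1 of its probe sets. In controls of 10 weeks the oculomotor nucleus read 259.5, 317 and 254 and the usable spinal cord arrays 329.8 and 412. Slc6a4 read at most 18.8 on every spinal cord array of the mutants, while the oculomotor nucleus read 975, 710.4 and 1103 at 6 weeks and 2098, 2640.1 and 1986 at 10 weeks (difference 1.27 ± 0.25). Cartpt read 2466, 1984 and 3508 at 6 weeks and 4526, 5668 and 5148 at 10 weeks in the oculomotor nucleus and differed by -0.08 between the ages in the spinal cord (difference 1.05 ± 0.21, adjusted p = 0.0465). Litaf, a lysosomal membrane protein, had a regional difference of -0.42 at 6 weeks and -1.27 at 10 weeks on 1 probe set, with 1097, 1129.8 and 1004 at 6 weeks and 734, 768 and 782 at 10 weeks in the oculomotor nucleus and 1552, 1463 and 1322 and 2159, 1837 and 1659 in the spinal cord (difference -0.86 ± 0.15). The ages did not overlap in either region on this probe set, and controls stood between at -0.74. The other tested probe set of Litaf gave -0.76 at 10 weeks and a difference between the ages of -0.17 (adjusted p = 0.553).

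Among the others, the RNA-binding protein gene Celf4 went from 0.35 to 1.32 (controls 0.98), though another of its 3 probe sets gave a difference of 0.12, and the potassium channel gene Kcnk2 from -0.29 to 0.54 (controls 0.56). Cd24a, a surface protein of immature neurons, narrowed from -2.32 to -1.47, with 10-week controls at -1.90. The copper-related gene Commd1 went from 0.93 to -0.30, with a change of 0.00 between the ages in the oculomotor nucleus and the spinal cord at 398, 466 and 585 and then 1246, 1174 and 1058. In 10-week controls its regional difference was -0.06, and both regions read lower than in 10-week mutants. The oculomotor nucleus read 457, 309 and 404 in controls against 739, 1191 and 928 in mutants. The usable control spinal cord arrays read 387 and 416. The ATP synthase gene Atp5a1 went from 0.63 to 0.04 on 1 probe set, with a difference of -0.13 (adjusted p = 0.658) on another, and the smooth muscle genes Acta2 and Myl9 were more positive at 10 weeks by 0.95 and 0.88. No gene of the microglial list was called for this difference, whose median over the list was -0.18 with 23 of 28 genes below 0, against -0.03 and 4366 of 8072 over all tested genes. Here too the genes share the same arrays, and the median was not recomputed without the pair of doubted arrays. In limma 33 genes, each by 1 probe set, were called, 12 higher and 21 lower.

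**Figure D5:**
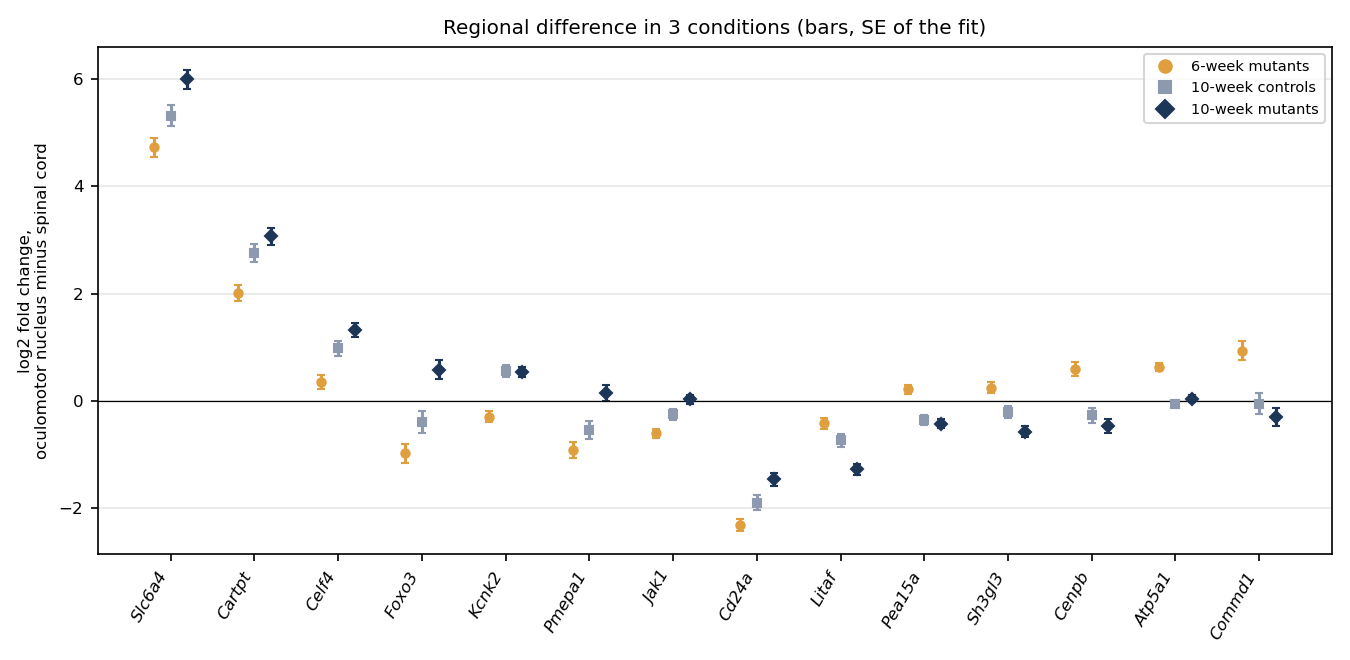
Log2 fold change of the oculomotor nucleus over the spinal cord, with the SE of the fit, for 14 genes called between 6 and 10 weeks: 6-week mutants (orange circles), 10-week controls (grey squares) and 10-week mutants (blue diamonds). Foxo3 passes from -0.98 through -0.39 to 0.58, and for Kcnk2 the 10-week controls (0.56) and mutants (0.54) coincide.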

How the data were processed

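Total RNA of 18 samples was hybridised as biotinylated cRNA to Affymetrix 430A arrays, per the labels. The deposited values are linear intensity signals that the authors computed with Microarray Suite 5.0, per the design text and the submitters' processing notes; their 2% trimmed mean was 500.1 to 500.2 on the arrays used, and detection calls are not used here. Of 22626 probe sets without controls, those in the lowest 40% by mean (log2 limit 7.38) were left out and 13575 tested. An offset of 25 was added and log2 taken, with no further normalization. limma 3.58.1 in R 4.3.3 fitted 6 group means on 17 arrays (lmFit, eBayes with a trend, 11 residual degrees of freedom), with Benjamini-Hochberg adjustment over all tested probe sets and a threshold of 0.05. Control spinal cord replicate 1 was left out. The fit was tested on simulated data.

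Gene symbols came from GEO's platform annotation: 20380 probe sets have 1 symbol, 691 several and 1555 none. A gene in a list stands by its tested probe set with the highest mean. Members, lists and doubted arrays were chosen with earlier results of these data known. Named genes are the members of the lists with the smallest p-values, all motor neuron, Hox and marker genes, the widest non-overlapping differences of 2-fold or more, and the smallest p-values of each comparison between conditions; exceptions are named as such. Members under the filter were read from a fit without it. Alternatives tried were quantile normalization, median centring, an offset of 100, a floor at 25, other filters, no trend, all 18 arrays, a replicate block, 1 probe set per gene, 6 arrays alone, other call rules and leaving out arrays. The number of arrays limits the precision.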

Additional observations from a re-analysis of the deposited data

Results flagged for a closer look

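In limma's test of 10-week against 6-week mutants 50 probe sets were called. The 24 listed here had the smallest p-values in each direction, 1 per gene with a symbol. Cartpt (1.05) and Acta2 (0.95) were among the others called. The regional difference is given here as 10 weeks minus 6 weeks on the log2 scale. It was more positive at 10 weeks for Slc6a4 (1.27), Foxo3 (1.56), Kcnk2 (0.83), Celf4 (0.97), the splicing factor gene Sf3b2 (0.89), Pomk (1.02), the cytokine signalling kinase Jak1 (0.64), Cd24a (0.85), Pmepa1 (1.06), Naf1 (0.88), Myl9 (0.88) and Tcf4 (0.67). It was more negative for Cenpb (-1.07), Litaf (-0.86), Atp5a1 (-0.58), Gatd3a (-0.71), Sh3gl3 (-0.82), Dus1l (-1.07), Pea15a (-0.65), Qdpr (-0.57), Marchf2 (-0.74), Mrps35 (-0.82), Ywhab (-0.79) and Commd1 (-1.23). For several of these genes other tested probe sets of the same gene were not called and lay nearer 0: Foxo3 at 0.05, Sf3b2 at -0.05 to 0.10, Pmepa1 at -0.09 and -0.08, Jak1 at -0.27 and 0.31, Pomk at 0.33, Celf4 at 0.12 and 0.41, Tcf4 at 0.25 to 0.51, Litaf at -0.17, Atp5a1 at -0.13, Dus1l at -0.17, Qdpr at -0.15, Pea15a at -0.45 and the 5 others of Ywhab at -0.15 to 0.15. The other probe sets of Cd24a lay close by, at 0.77 and 0.86. Mutants of 6 weeks had no controls of their age, so age and disease stage cannot be told apart.

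Among control RNAs, which are no part of the comparison, 4 read high on spinal cord replicate 1 of the 10-week mutants alone: Dap 3083.9, Thr 1053.8, Phe 458.8 and Lys 424.1. On the other 5 arrays they read 1.5 to 6.3, 5.4 to 9.3, 11.2 to 33.3 and 4.7 to 37.9. The hybridisation controls BioC (245.6 to 530.9) and Cre (6385 to 11382) were present on all 6 arrays.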

How the results depend on the processing

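The count of 2619 probe sets that differed between the regions was 203 with all 18 arrays, 1510 without oculomotor replicate 2 and spinal cord replicate 1, 267 when 2-fold was also required and 271 under a rule like the submitters' (all 9 pairwise comparisons in 1 direction and over 2-fold); leaving out 1 array gave 1790.0 to 2358. It lay between 1769 and 2732 under the other settings, with the share of higher calls at 57.3% after median centring against 48.2%. The 327 probe sets of named genes that were called in the main fit kept their direction in every setting where they were tested. Of these 327, 71 were not called without that pair of arrays, 247 with all 18 arrays and 29 to 47 without 1 array. The count of 50 against 6-week mutants was 13 with quantile normalization, 20 with median centring, 0 with no filter, 29 without the trend, 0 with all 18 arrays, 0 with a replicate block and 4 without the pair; leaving out 1 array gave 0 to 23. It was 1 without 6-week spinal cord replicate 1 and 3 without 10-week spinal cord replicate 1 or 3. The count of 0 against controls stayed 0, and that against the mean of both conditions was 0 to 1 without 1 array. The median of the spinal interneuron factors was 0.05 with a 60% filter, where fewer genes were tested. The causes of the other changes were not tested. The labels do not say whether replicate numbers pair the samples. Same-numbered arrays of the 10-week mutants had correlations of -0.068, -0.0614 and 0.0079 in their deviations from the group means. Those of the 6-week mutants gave -0.0315, 0.107 and -0.011, and those of the controls 0.13 and 0.0814. So few arrays cannot decide whether the numbers pair the samples. With the replicate number as a block the main count was 2221, and 0 in each comparison between conditions.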
